A study of Mus musculus with 9 samples.

Results

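The miR-23, miR-27 and miR-24 microRNAs (miRNAs) are encoded side by side in a pair of paralogous clusters, the a cluster (miR-23a, miR-27a and miR-24-2) and the b cluster (miR-23b, miR-27b and miR-24-1). Their levels were examined in small extracellular vesicles (smEVs) shed by immortalised mouse kidney medullary (KM) cells. The entries mmu-miR-23a, mmu-miR-23b, mmu-miR-24, mmu-miR-27a and mmu-miR-27b, written here without the species prefix, were chosen by name, as the entries of these families without a locus number. They are 5 of the 1164 entries of the deposited count table, of which 469 had a count in any library. The question was how the balance between the a and b clusters compared across the 3 genotypes.

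Small RNA was sequenced from 9 libraries, 3 each from wild-type (WT), Bbs4-/- and Bbs6-/- cells. Bbs4 encodes a subunit of the BBSome, a complex that carries membrane proteins to and from the primary cilium, and Bbs6 encodes a protein related to chaperonins that takes part in its assembly. All cells were grown to confluency and kept without serum for 24 h before vesicles were collected from the medium by differential centrifugation. Each genotype was represented by 1 cell line and no rescued line was sequenced, so genotype and cell line cannot be told apart, and the p-values measure the spread between vesicle preparations of 1 line.

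The libraries were shallowest in WT, with 64118 to 130905 counts, against 176935 to 457163 counts in Bbs4-/- and 192654 to 423784 in Bbs6-/-. Replicates are numbered as in the count table, which holds replicates 1, 2 and 3 of Bbs4-/-, replicates 2, 3 and 4 of Bbs6-/-, and replicates 1, 3 and 4 of WT, and values by library are listed in that order. Bbs6-/- replicate 2 stood apart from its group. The chi-square per degree of freedom between its counts and those of replicates 3 and 4 was 86.2 and 110, against 12.4 between replicates 3 and 4 and 18.1 to 39.8 within the other lines. This measure rises with depth, so its values are not on 1 scale between the shallow WT libraries and the mutants. Epithelial miRNAs were present in every line, led by miR-200b, and their summed CPM (read counts scaled to a common library size) was lowest in WT at 9993 to 13305, against 16968 to 18926 for Bbs4-/- libraries and 16551 to 21410 for Bbs6-/- libraries. All 5 epithelial markers had counts in both mutants and 4 of 5 in WT, where miR-141 was at 0. The means of miR-200c were 3307 CPM in Bbs4-/-, 2748 CPM in Bbs6-/- and 12.1 CPM in WT. Those of miR-200b were 10356, 11384 and 8389 CPM in that order. The kidney tubule list summed to 44436 to 47401 CPM in Bbs4-/-, 26548 to 34523 CPM in Bbs6-/- and 26239 to 32870 CPM in WT. This sum was nearly all miR-30a, with means of 45966, 29225 and 28643 CPM in that order. The other tubule markers had group means of at most 165 CPM and did not share its order. Of these, miR-192, miR-194 and miR-215 had their highest means in Bbs6-/-, and miR-204 in WT. Marker lists of endothelial cells, smooth muscle and fibroblasts, red cells and liver summed to at most 273 CPM in any library. Leukocyte markers, led by miR-155, reached 1751 CPM and muscle markers, led by miR-206, 2379 CPM. These sums were mostly miR-155, at means of 1257 to 1564 CPM, and miR-206, at 1170 to 2010 CPM. Other leukocyte markers had no count in some lines, miR-150 in Bbs4-/-, miR-142a and miR-223 in Bbs6-/-, and miR-142a and miR-150 in WT. The muscle marker miR-133a had none in Bbs6-/-.

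A miRNA is cut from a hairpin, and bases 2 to 8 of the mature strand, the seed, pair with target transcripts and lower their translation and stability. miRNAs with the same seed share most predicted targets. The a and b clusters arose by duplication and have been studied in blood vessel growth, in fat cell differentiation and in kidney injury. Clustered hairpins are often cut from 1 primary transcript, yet their mature levels can differ, since each hairpin is processed and each mature strand is turned over on its own.

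The mature sequences are shown because miR-27a and miR-27b are nearly alike and miR-24 is the same from both clusters. They were taken from RefSeq (mouse build GRCm38.p6), where 10 of the 11 names looked for were matched, all but miR-23b-3p. The strands below run 5′ to 3′ and capitals mark the seed.
miR-23a-3p: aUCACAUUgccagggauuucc
miR-27a-3p: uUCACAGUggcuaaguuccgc
miR-27b-3p: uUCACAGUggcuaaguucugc
miR-24-3p: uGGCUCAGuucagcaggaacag
miR-24-1-5p: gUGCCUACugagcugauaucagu
miR-24-2-5p: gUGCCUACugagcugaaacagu
Counting from the 5′ end, miR-27a-3p and miR-27b-3p share their first 18 bases and differ by the single substitution C19U (miR-27a base first). Their seed UCACAGU occurred in no other of the 1679 mature mouse names. miR-24-3p has the same sequence from both loci, whereas the opposite strands miR-24-1-5p and miR-24-2-5p share their seed and first 16 bases and then diverge. The count table names no arm for any entry, so it cannot be told which strand of a hairpin an entry counted. The 3p strands of miR-23a and miR-23b were not compared here. How reads matching both paralogs of miR-23 or of miR-27 were shared out was not given in the sources used here. Where a miRNA had more than 1 entry, as a miRNA encoded by 2 loci can, the authors retained the maximum of the counts, not their sum.

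In the GRCm38 annotation the a cluster lies on the plus strand of chromosome 8, with Mir23a at 84208518 to 84208592, Mir27a at 84208672 to 84208758 and Mir24-2 at 84208815 to 84208921. No protein-coding gene spans it, and the nearest, Zswim4 on the minus strand, lies 1757 to 2086 bp away. Mir24-2 overlaps an exon of the lincRNA Gm26532 on the same strand. The b cluster lies on the plus strand of chromosome 13, with Mir23b at 63300484 to 63300557, Mir27b at 63300712 to 63300784 and Mir24-1 at 63301208 to 63301275. It lies within the plus-strand gene 2010111I01Rik and within Fancc, which runs on the minus strand. Mir23b is intronic, while Mir27b and Mir24-1 also overlap exons of 1 and 4 transcripts of 2010111I01Rik that are not classed as protein-coding. The third hairpin starts 297 bp from the start of the first in the a cluster and 724 bp from it in the b cluster. Each miR-24 hairpin has an antisense partner on the minus strand, Mir3074-2 at the a locus and Mir3074-1 at the b locus.

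**Figure D1:**
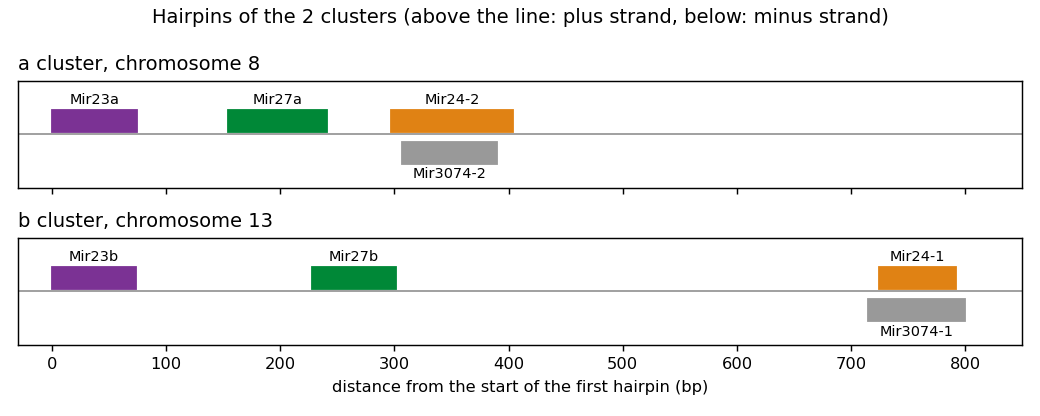
Hairpins of the a cluster on chromosome 8 and the b cluster on chromosome 13, drawn to scale by distance in bp from the start of the first hairpin, with plus-strand hairpins above the line and minus-strand hairpins below. The order miR-23, miR-27, miR-24 is the same, and the third hairpin starts at 297 bp in the a cluster and at 724 bp in the b cluster.

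The 5 entries together held 3.59 ± 0.448% of all counts in Bbs4-/-, 3.79 ± 0.576% in Bbs6-/- and 4.51 ± 0.393% in WT (SD, n = 3 each). The share by library was 3.35, 4.11 and 3.32% in Bbs4-/-, 4.45, 3.42 and 3.49% in Bbs6-/-, and 4.29, 4.27 and 4.96% in WT. The WT libraries lay above the Bbs4-/- libraries and overlapped those of Bbs6-/-, where replicate 2 was the high library. The lowest WT share had a 95% Wilson interval of 4.15 to 4.39% and the highest Bbs4-/- share of 4.03 to 4.2%. These intervals cover counting error alone. The order of the genotypes depended on the scaling. With scaling by the trimmed mean of M-values (TMM), which sets the bulk of miRNAs equal between libraries, the summed level of the 5 entries was 37351 ± 1939 CPM in Bbs4-/-, 42326 ± 4723 CPM in Bbs6-/- and 38598 ± 4554 CPM in WT (SD, n = 3 each), with Bbs6-/- highest and the WT range from 33419.7 to 41979.9 CPM overlapping both mutants.

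Among the 5, miR-23a and miR-24 were the most abundant, at ranks 16 to 24 and 15 to 25 of the table by count, followed by miR-27b at ranks 25 to 34. miR-23b and miR-27a came last, at ranks 37 to 47 and 38 to 49. The count of miR-24 was 0.714 to 1.32 times that of miR-23a, so the leading entries changed places between libraries. The count of miR-24 was 1.13 to 2.51 times that of miR-27b, and so above it in all 9 libraries. Counts of different miRNAs were compared as such, with no correction for how well each sequence was captured.

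The a-cluster entries had levels that overlapped between all 3 genotypes. Levels are given as TMM-scaled CPM. For miR-23a the levels were 11860, 13132 and 11722 CPM in Bbs4-/-, 13994, 10102 and 13407 CPM in Bbs6-/-, and 9835, 15629 and 12535 CPM in WT. The lowest and the highest miR-23a values were both WT libraries. For miR-27a the levels were 2971, 3476 and 3110 CPM in Bbs4-/-, 4604, 3356 and 2948 CPM in Bbs6-/-, and 2747, 3473 and 3833 CPM in WT. Bbs6-/- replicate 2 had the highest miR-27a level of the 9 libraries, and the other 8 lay between 2747 and 3833 CPM.

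With TMM scaling the b-cluster entries had their lowest means in WT, at 2794 ± 571 CPM for miR-23b and 6341 ± 579.6 CPM for miR-27b (SD, n = 3). The means were 3804 ± 277 and 7600.0 ± 946 CPM in Bbs4-/- and 4393 ± 629 and 8988 ± 705 CPM in Bbs6-/-. As a share of all counts, miR-23b was still lowest in WT (0.324 ± 0.0401%, against 0.365 ± 0.0422% in Bbs4-/- and 0.390 ± 0.0279% in Bbs6-/-), whereas miR-27b was 0.732 ± 0.136% in Bbs4-/-, 0.801 ± 0.0417% in Bbs6-/- and 0.740 ± 0.0197% in WT, so that its lowest mean was in Bbs4-/-. For miR-23b the levels were 4002, 3924 and 3488 CPM in Bbs4-/-, 3830, 4275 and 5072 CPM in Bbs6-/-, and 2164, 3277 and 2941 CPM in WT. On this scale every mutant library lay above every WT library, with a gap from 3277 to 3488 CPM, and the mutants overlapped each other. By share of all counts Bbs4-/- replicate 3, at 0.328%, lay below WT replicates 3 and 4, at 0.346 and 0.348%. For miR-27b the levels were 7807, 8425 and 6568 CPM in Bbs4-/-, 8177, 9330 and 9457 CPM in Bbs6-/-, and 5714, 6857 and 6451 CPM in WT. All Bbs6-/- libraries lay above WT, while Bbs4-/- replicate 3 lay within the WT range.

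For miR-24, which both loci encode, the levels were 10798, 10288 and 10481 CPM in Bbs4-/-, 16458, 10553 and 11415 CPM in Bbs6-/-, and 12959, 11158 and 16219 CPM in WT. The Bbs4-/- libraries were close together and below all WT libraries, with a gap from 10798 to 11158 CPM. Bbs6-/- replicate 2 was the highest library. Bbs6-/- replicate 3, at 10553 CPM, lay within the Bbs4-/- range, while Bbs6-/- replicate 4, at 11415 CPM, lay within the WT range.

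**Figure D2:**
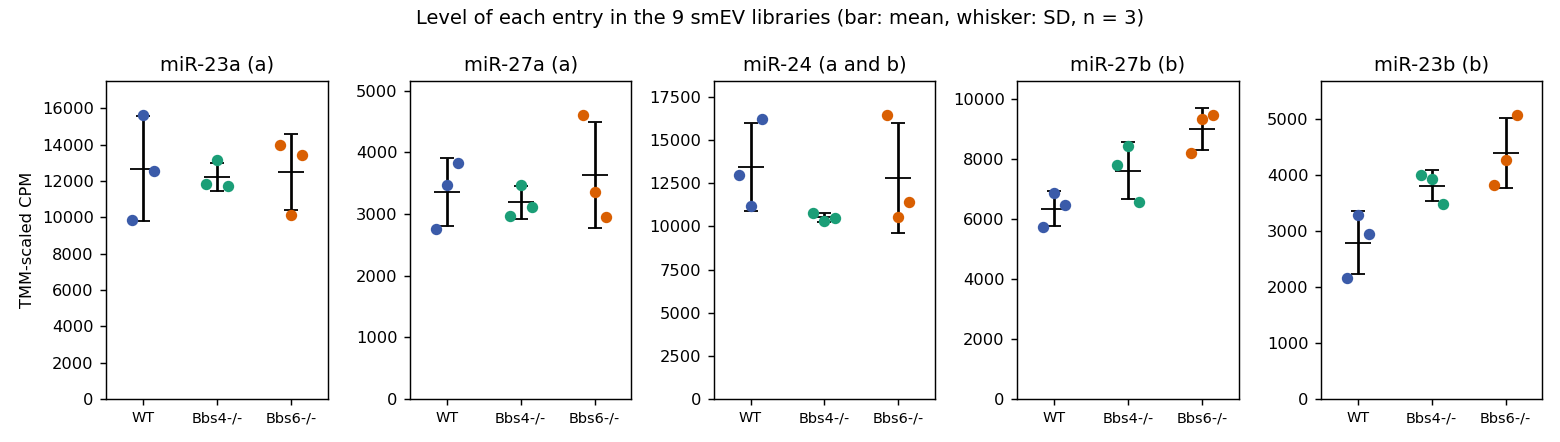
TMM-scaled CPM of each entry on a linear axis from 0, with 1 point per library, a bar at the mean and whiskers of 1 SD (n = 3 per genotype). miR-23b lay between 2164 and 3277 CPM in WT and between 3488 and 5072 CPM in the mutants, a separation from Bbs4-/- that was not seen by share of all counts, while miR-23a and miR-27a overlapped in all 3 genotypes.

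Over the 9 libraries the 5 entries varied less than most miRNAs of the table. The SD of log2 CPM was 0.215 for miR-23a, 0.227 for miR-27a, 0.253 for miR-27b, 0.267 for miR-24 and 0.353 for miR-23b. The 108 entries with a mean of at least 50 counts per library had a median SD of 0.423 and quartiles of 0.332 and 0.679, and low-count entries among them carry more counting error. The highest library was 2.34 times the lowest for miR-23b and 1.59 to 1.68 times for the others.

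In Bbs4-/- against WT, no entry of the 5 passed the threshold of the study, which asks for an adjusted p under 0.1 with a log2 fold change of 2 or more up or down and which 6.17% of the 308 entries tested passed. None had an adjusted p under 0.1, against 15.3% of all entries tested in either direction and 8.77% that were higher. DESeq2 also gave 0 of the 5, and 1 of them, miR-24, had an unadjusted p under 0.05. The entries tested go down to a total of 6 counts, and low-count entries carry more counting error. With filterByExpr, a stricter filter for low counts, 48 of 165 entries tested and 1 of the 5 had an adjusted p under 0.1. The median log2 fold change of the 5 was -0.16, and that of all entries tested -0.015. Positive estimates were found for 2 of the 5 entries and 49.4% of all entries tested. They were those of the b cluster and the a-cluster entries had negative ones, but each 95% interval of these 4 included 0. The estimate for miR-23b was 0.33 (SE 0.224, 95% interval -0.15 to 0.81, adjusted p = 0.376, edgeR's quasi-likelihood test with Benjamini-Hochberg adjustment over all entries). For miR-27b it was 0.15 (SE 0.199, adjusted p = 0.690, edgeR), a sign that turned to -0.015 when libraries were scaled by total count.

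The a-cluster estimates in Bbs4-/- were -0.16 for miR-23a (SE 0.208, 95% interval -0.61 to 0.29, adjusted p = 0.690, edgeR) and -0.19 for miR-27a (SE 0.220, 95% interval -0.66 to 0.28, adjusted p = 0.646, edgeR). Without WT replicate 3 the miR-23a estimate was 0.11. The estimate for miR-24 was -0.47 (SE 0.200, 95% interval -0.90 to -0.039, adjusted p = 0.166, edgeR). Its unadjusted p was under 0.05, as for 26.0% of all entries tested. In the TMM-scaled levels, but not by share of all counts, miR-23b was non-overlapping and higher in Bbs4-/-, as were 20.8% of the entries tested. On both scales miR-24 was non-overlapping and lower, as were 11.0% of the entries tested with TMM scaling. The adjusted p of miR-24 fell under 0.1 in 3 of 14 alternative analyses, within a range of 0.0382 to 0.441, among them that without WT replicate 3 (log2 fold change -0.49, adjusted p = 0.0912, edgeR). Without WT replicate 4 it was -0.28 (adjusted p = 0.441, edgeR).

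In Bbs6-/- against WT, miR-23b rose 1.61-fold (log2 fold change 0.69, SE 0.219, 95% interval 0.20 to 1.18, adjusted p = 0.0834, edgeR's quasi-likelihood test). It was the single entry of the 5 with an adjusted p under 0.1, against 15.1% of the 298 entries tested, and 9.73% of them were higher with such a p. The entries tested go down to a total of 6 counts, and low-count entries carry more counting error. With filterByExpr, a stricter filter for low counts, 44 of 164 entries tested and 1 of the 5 had such a p. The miR-23b call was lost when Bbs6-/- replicate 3 (adjusted p = 0.352, edgeR), Bbs6-/- replicate 4 (0.215), WT replicate 1 (0.205), WT replicate 3 (0.156) or WT replicate 4 (0.230) was left out, with log2 fold changes of 0.59 to 0.73. Without Bbs6-/- replicate 2, which stands apart, it was 0.81 (adjusted p = 0.0134, edgeR). Scaled by total count, the miR-23b estimate was 0.27 (adjusted p = 0.464, edgeR). That scaling moved the median over all entries from -0.011 to -0.44, and relative to the median miR-23b lay 0.70 higher with either scaling.

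miR-27b had an estimate of 0.53 in Bbs6-/- (1.45-fold, SE 0.181, 95% interval 0.13 to 0.94), with an adjusted p of 0.103 in edgeR, just outside the threshold. Without Bbs6-/- replicate 2 it was 0.63 (adjusted p = 0.0119, edgeR). The adjusted p was under 0.1 in 3 of 14 alternative analyses, within a range of 0.0119 to 0.694. Libraries of Bbs6-/- and WT did not overlap for miR-23b and miR-27b, both higher in Bbs6-/-, and 17.4% of all entries tested were non-overlapping and higher. Their unadjusted p was under 0.05, as for 22.1% of all entries. None of the 5 was non-overlapping and lower, against 11.7% of all entries tested. The summed epithelial markers were also higher in every Bbs6-/- and Bbs4-/- library than in WT, and their part in the miR-23b and miR-27b values was not tested. These markers did not rise alike. In Bbs4-/- the log2 fold change was 7.97 for miR-200c, 0.19 for miR-200b, 0.14 for miR-200a and 0.24 for miR-429. In Bbs6-/- it was 7.89, 0.47, 0.74 and 0.49 in that order.

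The other 3 entries had intervals that included 0 in Bbs6-/-. The estimates were 0.0097 for miR-23a (SE 0.184, 95% interval -0.41 to 0.43, adjusted p = 0.991, edgeR), 0.13 for miR-27a (SE 0.223, 95% interval -0.37 to 0.63, adjusted p = 0.786, edgeR) and -0.076 for miR-24 (SE 0.228, 95% interval -0.59 to 0.44, adjusted p = 0.894, edgeR). The sign of miR-23a turned under most alternative scalings and filters, to -0.39 at most with scaling by total count, where miR-27a was -0.26. Without Bbs6-/- replicate 2, which was high in miR-24 and miR-27a, the estimates were -0.24 for miR-24 and -0.025 for miR-27a. No entry passed the study's threshold, which 4.03% of all entries tested passed. The median over the 5 entries was 0.13, and that over all entries tested -0.011, with 4 of 5 estimates and 49.7% of all estimates above 0. Both mutants were compared with the same WT libraries.

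Between Bbs4-/- and Bbs6-/-, a comparison that shares 1 spread estimate over all 9 libraries, none of the 5 passed the study's threshold, which 3.88% of the entries tested passed. All 5 estimates were negative, while 51.8% of all estimates were above 0. They were -0.031 for miR-23a, -0.21 for miR-23b, -0.28 for miR-24, -0.19 for miR-27a and -0.24 for miR-27b, with adjusted p-values of 0.584 to 0.958 (edgeR) against 8.09% of the 309 entries tested with an adjusted p under 0.1. DESeq2 also called 0 of the 5, and 0 of them had an unadjusted p under 0.05 in edgeR, against 16.2% of all entries. With filterByExpr, 26 of 190 entries tested and 0 of the 5 had an adjusted p under 0.1. The sign of miR-23a turned to 0.080 with scaling by total count. All 5 ranges of levels overlapped, whereas 14.2% of all entries were non-overlapping and higher and 7.77% lower in Bbs4-/-, and the 95% intervals of the differences reached from -0.73 to 0.41 on the log2 scale. Leaving out 1 library moved these estimates, none of which passed. Without Bbs6-/- replicate 2 they were -0.36 for miR-23b, -0.13 for miR-24, -0.046 for miR-27a and -0.37 for miR-27b, without Bbs6-/- replicate 3 -0.29 for miR-23a, -0.55 for miR-24 and -0.39 for miR-27a, without Bbs6-/- replicate 4 -0.091 for miR-23b, and without Bbs4-/- replicate 2 -0.40 for miR-27b.

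**Figure D3:**
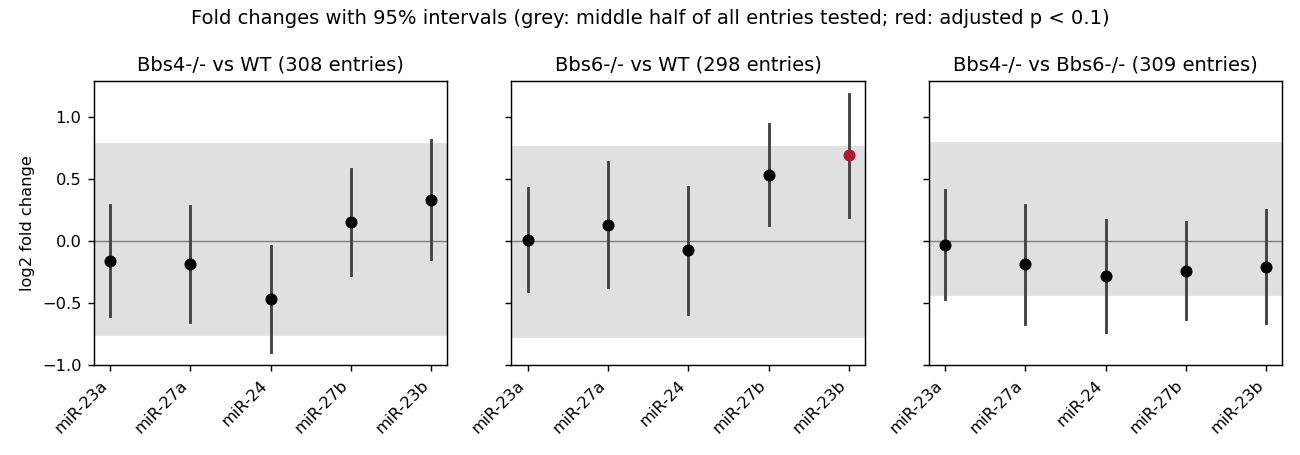
Log2 fold changes of the 5 entries from edgeR with 95% intervals in the 3 comparisons, with a grey band for the quartile range of all entries tested and red for an adjusted p under 0.1. In Bbs6-/- against WT, miR-23b at 0.69 is the single red point, and all 15 points lie within the grey bands, which run from -0.76 to 0.78, from -0.78 to 0.75 and from -0.44 to 0.79. The bands include low-count entries, which carry more counting error than the 5, so they are no measure of spread at the abundance of the 5. The sign of miR-27b in Bbs4-/-, of miR-23a in Bbs6-/- and between the mutants, and of miR-27a in Bbs6-/- turns with scaling by total count.

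A ratio of counts within a library needs no scaling between libraries, so the balance of the b against the a cluster was followed as miR-23b:miR-23a and miR-27b:miR-27a. miR-23b was the minor paralog in all 9 libraries. Its ratio to miR-23a was 0.337, 0.299 and 0.298 in Bbs4-/-, 0.274, 0.423 and 0.378 in Bbs6-/-, and 0.220, 0.210 and 0.235 in WT. Every mutant library lay above every WT library, and Bbs6-/- replicate 2 was the lowest of the mutants. The mean log2 ratio was 0.49 higher in Bbs4-/- than in WT (SE 0.0759, 1.40-fold) and 0.67 higher in Bbs6-/- (SE 0.194, 1.59-fold), each with p = 0.1 in a two-sided exact permutation test and 0.2 after adjustment over the 6 tests. With 3 libraries against 3, 0.1 is the smallest p that the 20 splits allow. The mutants differed by -0.18, with overlapping libraries (exact permutation p = 0.4, adjusted 0.48), a difference that was -0.36 without Bbs6-/- replicate 2 and -0.051 without Bbs6-/- replicate 3.

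Such a separation was common in this table. Over the 5778 pairs of the 108 entries with a mean of at least 50 counts, the ratios of 49.4% did not overlap between Bbs4-/- and WT, of 48.4% between Bbs6-/- and WT, and of 34.6% between the mutants. The median size of the log2 difference over all pairs was 0.718 for Bbs4-/- and 0.871 for Bbs6-/- against WT, above the 0.49 and 0.67 of miR-23b:miR-23a. Both differences of miR-23b:miR-23a were thus smaller than that of the median pair.

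For miR-27 the b paralog was the major one in all 9 libraries. The ratio miR-27b:miR-27a was 2.63, 2.42 and 2.11 in Bbs4-/-, 1.78, 2.78 and 3.21 in Bbs6-/-, and 2.08, 1.97 and 1.68 in WT. The Bbs4-/- libraries lay just above WT, with the nearest at 2.11 and 2.08, while Bbs6-/- replicate 2 lay within the WT range. Between Bbs4-/- and WT, 49.4% of all pairs did not overlap, and the median size of their log2 difference was 0.718. The mean log2 ratio was 0.32 higher in Bbs4-/- than in WT (SE 0.130, exact permutation p = 0.1, adjusted 0.2) and 0.40 higher in Bbs6-/- (SE 0.273, exact permutation p = 0.3, adjusted 0.45). The latter was 0.65 without Bbs6-/- replicate 2 and 0.22 without Bbs6-/- replicate 4. The mutants differed by -0.079 (exact permutation p = 0.8, adjusted 0.8), which was -0.33 without Bbs6-/- replicate 2 and 0.098 without Bbs6-/- replicate 4. Since the mature 3p strands of miR-27a and miR-27b are alike over 18 bases, a read cut short of base 19 cannot tell them apart. For miR-23a and miR-23b this limit was not examined.

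The share of the b-cluster entries in the summed miR-23 and miR-27 counts combines both ratios. It was 44.3, 42.6 and 40.4% in Bbs4-/-, 39.2, 50.3 and 47.0% in Bbs6-/-, and 38.5, 34.7 and 36.5% in WT. The means were 42.5 ± 1.97%, 45.5 ± 5.68% and 36.5 ± 1.92% (SD, n = 3 each). All mutant libraries were above WT, but Bbs6-/- replicate 2 (95% Wilson interval 38.0 to 40.5%) and WT replicate 1 (36.2 to 40.9%) differed by less than their counting error. No such share was formed for other entries. Among count ratios of pairs, 49.4% did not overlap between Bbs4-/- and WT and 48.4% between Bbs6-/- and WT. The Bbs6-/- spread of the b share was the widest, from 39.2% in replicate 2 to 50.3% in replicate 3.

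**Figure D4:**
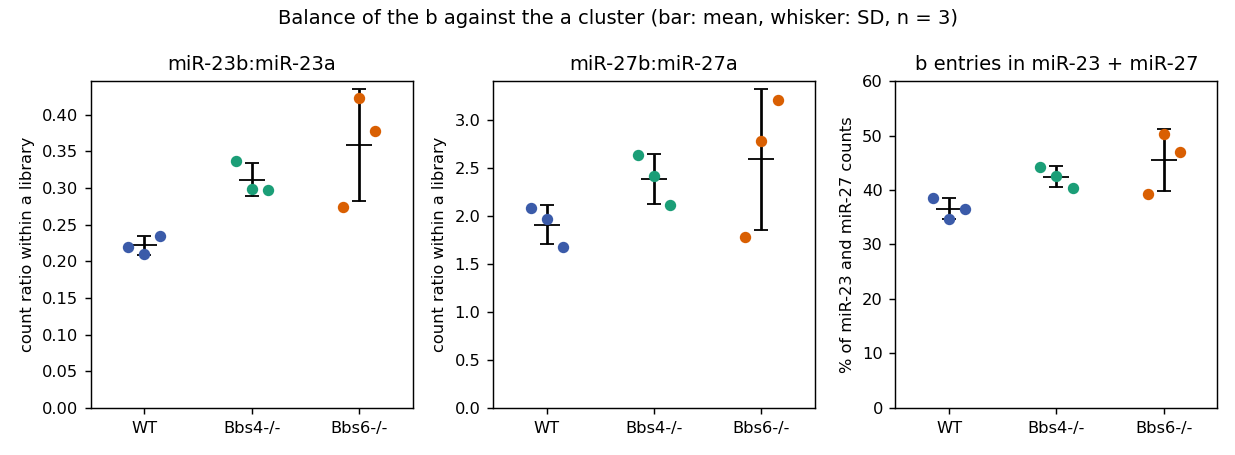
Count ratios miR-23b:miR-23a and miR-27b:miR-27a and the percentage of b-cluster entries in the summed miR-23 and miR-27 counts, with 1 point per library, a bar at the mean and whiskers of 1 SD (n = 3 per genotype). miR-23b:miR-23a lay between 0.210 and 0.235 in WT and between 0.274 and 0.423 in the mutants; the lowest Bbs6-/- point of each panel is replicate 2.

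Within the clusters the order of miR-23 and miR-27 was opposite. In the a cluster miR-23a had 3.01 to 4.55 times the count of miR-27a, with means of 3.85 ± 0.126 in Bbs4-/-, 3.53 ± 0.879 in Bbs6-/- and 3.78 ± 0.640 in WT (SD, n = 3). In the b cluster miR-27b had 1.86 to 2.64 times the count of miR-23b, with means of 1.99 ± 0.137, 2.06 ± 0.171 and 2.31 ± 0.292. This order was the same in all 9 libraries and genotypes.

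How closely the entries moved together was described by the SD of the log2 ratio of their counts over the 9 libraries, where a low SD means a steady ratio. The steadiest of the 10 pairs was miR-23b with miR-27b of the b cluster, at 0.151, and 0.277% of the 5778 pairs of the table were steadier. The a-cluster pair miR-23a with miR-27a had an SD of 0.219, with 1.63% of pairs steadier. The 4 pairs that join an a and a b entry lay between 0.302 and 0.394. miR-24 was steadier with miR-27a (0.215) and miR-23a (0.317) of the a cluster than with miR-27b (0.418) and miR-23b (0.515) of the b cluster. The median of all pairs was 0.665 and their 10th percentile 0.346, and pairs with low counts carry more counting error. The 9 points share genotype, depth and library preparation, so these values are descriptions.

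**Figure D5:**
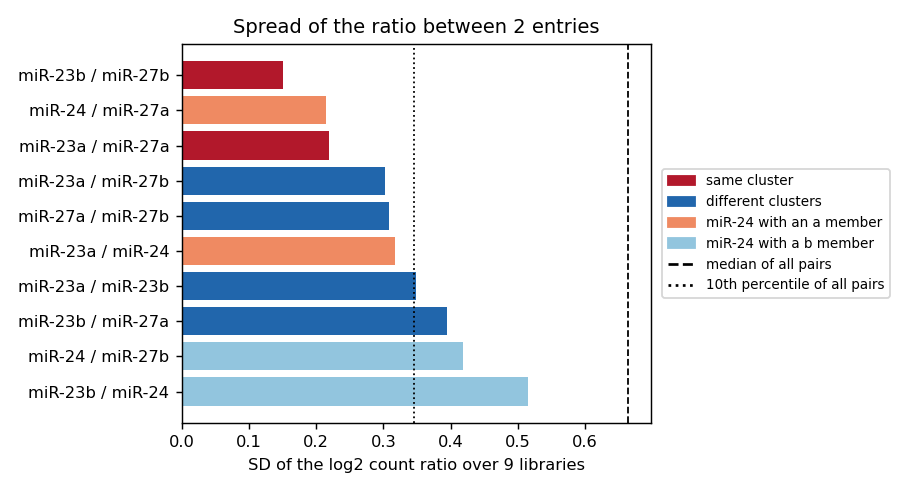
SD over 9 libraries of the log2 count ratio for the 10 pairs of the 5 entries, coloured by whether the pair lies in the same cluster, with lines at the 10th percentile (0.346) and the median (0.665) of all 5778 pairs. miR-23b with miR-27b is lowest at 0.151, and miR-23b with miR-24 is highest at 0.515.

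For 4 of the 5 entries, all but miR-27b, an entry outside the clusters was closer by this SD than any of the other 4 was. The closest entries are listed here with the 5 themselves left out. Thus miR-23a was closest to miR-674 (0.179), miR-15b (0.194) and miR-30e (0.216). miR-23b was closest to miR-26a (0.114), miR-191 (0.117) and miR-200a (0.174). For miR-26a the mean level was 11809 CPM in Bbs4-/-, 14457 CPM in Bbs6-/- and 8551 CPM in WT, an order it shared with miR-23b. miR-24 was closest to miR-423 (0.169), miR-16 (0.187) and miR-5099 (0.211). miR-27a was closest to miR-24-2 (0.180), its neighbour in the a cluster, then to miR-101b (0.199) and miR-674 (0.219). miR-27b was closest to miR-200b (0.180), miR-93 (0.181) and miR-191 (0.192), all farther than its partner miR-23b. Likeness was taken over the 108 entries with a mean of at least 50 counts, without the 5. With them included, miR-27b (0.151) was closer to miR-23b than miR-200a was. Likewise miR-24 (0.215) was closer to miR-27a than miR-674 was.

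The locus-numbered entries are each named for 1 locus, unlike the unnumbered miR-24, but the strand they counted is not named. Whether all their reads came from that locus was not tested. miR-24-2 of the a cluster had 86, 107 and 231 counts in Bbs4-/-, 123, 124 and 144 in Bbs6-/-, and 37, 54 and 81 in WT. miR-24-1 of the b cluster had 0, 3 and 0 counts in Bbs4-/-, 3, 0 and 6 in Bbs6-/-, and 0 in each WT library. A count of 0 allows up to 3 counts, or 36.5 CPM in the shallowest WT library, so a genotype difference in miR-24-1 was not detectable at this depth. miR-24-2 was above miR-24-1 in every library. Its count was 0.0494 ± 0.00250 of that of miR-24 in Bbs4-/-, 0.0391 ± 0.00262 in Bbs6-/- and 0.0367 ± 0.00567 in WT (SD, n = 3). By this ratio the Bbs4-/- libraries were above all others, at 0.0466 or more, a separation to be read against the 49.4% of all pairs that did not overlap between Bbs4-/- and WT and the 34.6% between the mutants.

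The antisense partners were at the limit of detection. miR-3074 had 3, 2 and 6 counts in Bbs4-/-, 0, 0 and 2 in Bbs6-/-, and 2, 0 and 0 in WT. miR-3074-1 had 2 counts in Bbs6-/- replicate 4 and 1 in WT replicate 3, and miR-3074-2 had none in any library. No fold is given for these entries.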

How the data were processed

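smEV small RNA of KM cells was sequenced in 9 libraries. Per the labels and the study's methods, the authors trimmed adapters (cutadapt 1.9), removed low-quality reads, collapsed duplicates by unique molecular identifiers, dropped short reads and quantified miRNAs with miRDeep2, where the maximum was retained for miRNAs listed repeatedly. The deposited values are raw counts. The submitters' processing notes name the build GRCm38 with no role. Identifier collapse makes a count close to a molecule, yet intervals cover counting error only. Depth was 64118 to 457163 counts per library.

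Counts were tested with edgeR 4.0.16 (R 4.3.3): quasi-likelihood test, TMM scaling, and Benjamini-Hochberg adjustment over all entries whose counts summed to 6 or more over 6 libraries (9 or more over 9 libraries between the mutants). SE was the size of the log2 fold change over the square root of F. CPM were scaled over all 9 libraries and the fits against WT over their own 6, so a fold differs somewhat from the ratio of mean CPM. Within-library count ratios were compared by exact permutation tests (scipy 1.17.1). DESeq2 1.42.0, other scalings, filters and left-out libraries were alternatives. Scripts were tested on simulated data.

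Besides the 5 entries, those named were the locus-numbered and antisense neighbours, marker lists and the 3 entries of lowest SD of the log2 ratio to each. The entries and lists were chosen with earlier results of these data known. Groups came from the genotype labels, and table columns were assigned to groups by name.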

Additional observations from a re-analysis of the deposited data

How the results depend on the processing

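In Bbs4-/- against WT, miR-24 passed an adjusted p of 0.1 with total-count scaling (log2 fold change -0.65, adjusted p = 0.0382, edgeR) and with filterByExpr (-0.46, 0.0930), and miR-27b turned to -0.015 with total counts. In Bbs6-/- against WT, miR-23b missed it with DESeq2 size factors (0.66, 0.106), total counts (0.27, 0.464) and no filter (0.65, 0.110), and miR-27b passed it with DESeq2 (0.51, 0.0906) and all 9 libraries in 1 fit (0.50, 0.0939). miR-23a in Bbs6-/- turned to -0.014 with DESeq2 and with its size factors, -0.39 with total counts, -0.030 with no filter, -0.099 with filterByExpr and -0.019 with all 9 libraries, and miR-27a to -0.26 with total counts. Between the mutants miR-23a turned to 0.080 with total counts. The cause was not tested. Against WT, the median over all entries with total counts was -0.20 for Bbs4-/- and -0.44 for Bbs6-/-.

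The replicate numbers were not treated as pairs in the main fits and the ratio tests. Correlations of same-numbered deviations ran from -0.48 to 0.717, with 2 of 6 over 0.1. Those 2 joined Bbs4-/- and WT, at 0.682 for replicate 1 and 0.717 for replicate 3. Crossed, Bbs4-/- replicate 1 with WT replicate 3 was at -0.684, and Bbs4-/- replicate 3 with WT replicate 1 at -0.73. Pairs of different numbers ran from -0.73 to 0.506, and same-numbered pairs with Bbs6-/- were all negative. Whether Bbs4-/- and WT shared a replicate effect was not tested. With the replicate block, in a fit of all 9 libraries, miR-23b in Bbs6-/- was 0.63 (adjusted p = 0.0843, edgeR), miR-23a turned to -0.14 and miR-27a to -0.069 in Bbs6-/-, and miR-23a to 0.078 between the mutants. The block called 21 entries in Bbs4-/-, 20 in Bbs6-/- and 14 between the mutants by the study's threshold, against 19, 12 and 12 without it.

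Leaving out 1 library gave log2 fold changes in Bbs4-/- of -0.19 to 0.11 for miR-23a, 0.30 to 0.56 for miR-23b, -0.49 to -0.28 for miR-24, -0.19 to -0.035 for miR-27a and 0.17 to 0.30 for miR-27b. In Bbs6-/- they were -0.080 to 0.098 for miR-23a, 0.59 to 0.81 for miR-23b, -0.26 to 0.083 for miR-24, -0.025 to 0.33 for miR-27a and 0.39 to 0.63 for miR-27b, and between the mutants -0.29 to 0.024 for miR-23a, -0.36 to -0.091 for miR-23b, -0.55 to -0.13 for miR-24, -0.39 to -0.046 for miR-27a and -0.40 to -0.20 for miR-27b. The log2 miR-23b:miR-23a difference to WT ranged from 0.43 to 0.53 for Bbs4-/- and from 0.54 to 0.85 for Bbs6-/-, and between the mutants from -0.36 to -0.051, and that of miR-27b:miR-27a from 0.23 to 0.41, 0.22 to 0.65 and -0.33 to 0.098. Entries called by the study's threshold numbered 16 to 23, 8 to 18 and 7 to 18 in Bbs4-/-, in Bbs6-/- and between the mutants, and those with an adjusted p under 0.1 27 to 55, 14 to 67 and 13 to 43. The lowest of the latter counts came without Bbs4-/- replicate 1, without Bbs6-/- replicate 3, and without Bbs4-/- replicate 3 or Bbs6-/- replicate 3, and the highest count between the mutants without Bbs6-/- replicate 2.

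With miR-24-2 and miR-24-1 added, the b share was 41.7% in Bbs4-/-, 44.8% in Bbs6-/- and 35.8% in WT. Of the 3 entries most like miR-27a, 1 remained with a mean of 200 counts, and with Pearson correlation 1 each for miR-23a and miR-27b. Restricting pairs to entries with a mean of 500 counts, chosen after seeing the data, left 0.754% of pairs steadier than miR-23b with miR-27b and 3.70% steadier than miR-23a with miR-27a. The exact tests of 3 libraries against 3 cannot pass 0.05.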
